A study of Mus musculus with 2 samples.

Results

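The core pluripotency factors described here are 7 genes: Pou5f1, which encodes the transcription factor Oct4, Sox2, Nanog, Sall4, Lin28a, Utf1 and Fgf4. They were taken by gene symbol from the annotation of the array, and every probe set that names one of them and no other gene was kept. This gave 12 probe sets, out of 20380 single-gene probe sets that cover 12393 genes. Pou5f1, Sox2, Nanog and Utf1 had 1 probe set each, Sall4 and Lin28a had 2 each, and Fgf4 had 4. The samples were mouse iPSCs, pluripotent stem cells made by reprogramming somatic cells, kept in a serum medium for mouse embryonic stem cells with 2i, a pair of kinase inhibitors against the ERK pathway and GSK3. The hybridized group is 1 sample and the live group is 1 sample, from the same labelled cell type and medium. The sources used here do not name the probe or procedure of the hybridization, the iPSC line or its strain. RNA of each sample was amplified as cDNA, labelled with biotin and read on 1 Affymetrix array. The readings of the hybridized sample are set here beside those of the live sample.

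A probe set is a group of short probes to the same transcript, and its value is the authors' log2 GCRMA signal, a background-corrected and normalized summary on which 1 unit is a factor of 2. A difference is the value on the hybridized array minus that on the live array. With 1 array in each group there is no replicate error and no test is possible, so each difference describes these arrays only, and their number limits the precision. "2-fold" below is a difference of at least 1 in size, a set limit and not a test. Signals of different probe sets depend on their probes, so a percentile below serves only to set a probe set's place on one array beside its place on the other, and says nothing of transcript amounts between genes.

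Oct4 and Sox2 bind DNA side by side at composite elements, and together with Nanog they keep pluripotency genes active, including their own. Sall4 is a zinc finger factor that works with them and recruits the NuRD chromatin complex. Lin28a encodes an RNA-binding protein that blocks maturation of the let-7 microRNAs, Utf1 a chromatin-associated protein of undifferentiated cells, and Fgf4 a secreted growth factor that signals through FGF receptors and ERK toward differentiation. Utf1 and Fgf4 are known direct targets of Oct4 and Sox2.

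The promoter of Nanog is shown because it holds the composite element through which Oct4 and Sox2 act on the third member of the core. Sequences are from RefSeq (build GRCm38.p6), whose table held promoters for 6 of the 7 genes in 8 windows, each from 250 bases before to 50 bases after a start site. Sall4 had no entry. The motifs searched on both strands were the octamer ATGCAAAT, the Sox core CATTGT, and the composite element, which is the Sox core, any 1 base and then ATGCAAA. The last of these pieces, the octamer without its final T, was also searched alone, a choice made after the sequences were seen. Each composite match contains a Sox core and this piece. The 250 bases before the first annotated start of Nanog lie on the plus strand at chr6:122707239-122707488, with the composite match, which reads on the opposite strand from position -75 to -62, in capitals.

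Nanog: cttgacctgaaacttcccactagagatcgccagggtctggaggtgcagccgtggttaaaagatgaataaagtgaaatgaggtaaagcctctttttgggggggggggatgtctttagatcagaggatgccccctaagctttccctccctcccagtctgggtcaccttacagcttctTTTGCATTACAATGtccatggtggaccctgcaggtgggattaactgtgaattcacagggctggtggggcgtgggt

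The exact composite was found in 2 of 32851 promoter windows, or 0.00609%, and both belong to Nanog, whose windows at its 2 annotated starts overlap and share this 1 element. The Sox core alone occurred in 12.6% of windows, the octamer in 1.74% and the octamer without its final base in 4.63%. Sox2 had the last of these from -99 to -93, on its own strand, within the 30-base window chr3:34649884-34649913. Lin28a had a Sox core from -96 to -91, on its own strand, the minus strand, within the 30-base window chr4:134018895-134018924. The partial matches are set beside that of Nanog in 30-base windows, with the matched letters in capitals.

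Nanog: cagcttctTTTGCATTACAATGtccatggt
Sox2: ccgccccctttcATGCAAAaccctctggcg
Lin28a: ggggggttgggtCATTGTcttttagaattt

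The window at the second annotated start of Pou5f1 held a Sox core on the opposite strand, and its first window held none of the 4 motifs. Utf1 and Fgf4 also had no match, and the enhancers known for these genes lie outside such windows. These matches describe letters in the reference and are not binding measured in these cells.

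The pluripotency factors lay within 2-fold on the 2 arrays, except Lin28a at 1 of its probe sets. Of the 12 probe sets, that 1 passed 2-fold upward on the hybridized array, which is 8.33% of them against 8.88% of all single-gene probe sets. In the other direction 0 passed it, against 8.48%, and in either direction 17.4% of all single-gene probe sets and 25.9% of those with a mean value of 5 or more were past it. A count of 1 in 12 is therefore no more than the background of the arrays. Differences under 1.5-fold were seen at 9 of the 12, or 75.0%, against 65.5% of all single-gene probe sets and 51.1% of the 11407 at that level. In the sign of the difference, 3 probe sets were higher and 9 lower on the hybridized array. Among the 11 with a mean of 5 or more 8 were lower, or 72.7%, against 53.2% of all single-gene probe sets at that level. The median difference was -0.24 over the 12 and -0.15 over those 11, against -0.07 over all single-gene probe sets at the level. Probe sets of 1 gene are not independent, so these counts and medians weight Fgf4 and Sall4 more. By gene, 5 were lower at every probe set and 2 higher at every one, with no such share computed over all genes. By the brightest probe set of each factor the median was -0.15, against -0.17 over all genes at the level.

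**Figure D1:**
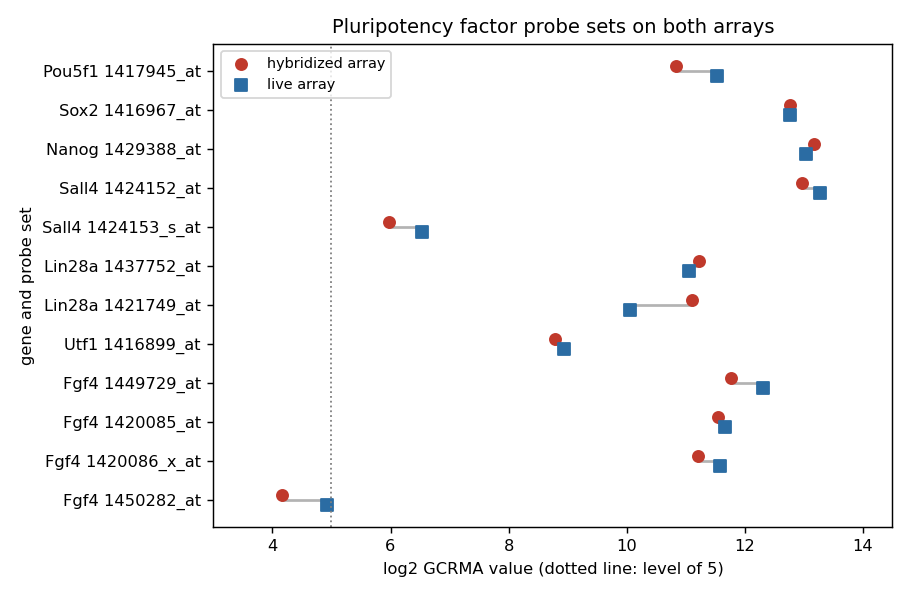
Log2 GCRMA value (horizontal axis) of each of the 12 probe sets (rows) on the hybridized array (circles) and the live array (squares), 1 array each, with a dotted line at 5. The wide gap to the right is Lin28a 1421749_at, at 11.11 on the hybridized array and 10.05 on the live array.

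Among the DNA-binding core, Sox2, an HMG-box factor, read 12.76 on the hybridized array and 12.77 on the live array, a difference of -0.01. Nanog, a homeodomain factor, read 13.17 on the hybridized array and 13.03 on the live array, a difference of 0.14. Differences were small in general at such high signals: of the 306 probe sets within 0.5 of Nanog's mean, 1.31% were 2-fold apart in either direction.

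Pou5f1 had the widest difference of this core. It read 10.83 on the hybridized array and 11.53 on the live array, a difference of -0.70 or 1.63-fold lower. Of 1440 probe sets within 0.5 of its mean, 11.9% had a lower difference, and the median of these neighbours was 0. In rank, Pou5f1 stood at percentile 87.8 of the hybridized array and 93.1 of the live array. Its single probe set, 1417945_at, was designed from the RefSeq mRNA, and no second probe set shows whether the shift holds elsewhere on the transcript. Processed copies of Pou5f1 and Nanog are known in the mouse genome, and signal from them was not tested, since probe sequences were not used here.

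Sall4 was slightly lower at both of its probe sets. The brighter, 1424152_at, read 12.96 on the hybridized array and 13.28 on the live array, a difference of -0.32. The dimmer, 1424153_s_at, read 5.97 on the hybridized array and 6.54 on the live array, a difference of -0.57. Both come from the same source sequence, so they are not independent, and the suffix _s_at marks probes that match several transcripts. Their differences lay 0.25 apart, and a gap at least that wide was found in 79.3% of 1770 genes with exactly 2 probe sets at a mean of 5 or more. Both differences below 0 is likewise a common pattern, seen in 32.6% of those genes.

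The probe sets of Lin28a disagreed in size. At 1437752_at Lin28a read 11.23 on the hybridized array and 11.06 on the live array, a difference of 0.17. At 1421749_at Lin28a read 11.11 on the hybridized array and 10.05 on the live array, a difference of 1.06 or 2.09-fold higher. Both were higher on the hybridized array, but only the second passed 2-fold, by a small margin. Quantile normalization of the arrays put it at 1.00, exactly on the limit.

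The 2 Lin28a differences lay 0.89 apart, and 36.8% of the 1770 genes with exactly 2 probe sets differed by at least as much. A pattern like that of Lin28a, with 1 probe set 2-fold higher and the other under 2-fold, was found in 21.6% of these genes, and 3.05% had both 2-fold higher. Within 0.5 of the mean of 1421749_at, 11.1% of 1725 probe sets were 2-fold higher and 89.7% had a lower difference than it. The platform table gives a RefSeq mRNA as the source of 1421749_at and a different record as that of 1437752_at. Averaged over both probe sets the gene was 0.62 higher.

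On the same arrays, control probe sets placed along single transcripts differed in shape. For Actb the 5′ control read 11.85 on the hybridized array and 10.09 on the live array, while the 3′ control read 12.35 on the hybridized array and 13.11 on the live array. For Gapdh the 5′ control was 0.96 higher on the hybridized array and its 3′ control lower by 0.85, a difference of -0.85. A 5′ probe set was thus higher and a 3′ probe set lower for these transcripts. Tfrc was higher at both ends, by 1.88 at 5′ and 1.38 at 3′, but not in the middle. The middle controls differed by -0.08 for Tfrc, -0.09 for Actb and -0.47 for Gapdh. Where the probe sets of Lin28a and the other factors lie on their transcripts is not in the tables used here, so the part of transcript position in their differences was not tested.

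Utf1, a marker that is lost early in differentiation, read 8.79 on the hybridized array and 8.94 on the live array. The difference of -0.15 was small for its level, where 29.2% of 1638 probe sets within 0.5 were 2-fold apart. Utf1 stood at percentile 71.0 of the hybridized array and 72.6 of the live array.

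Fgf4 was lower on the hybridized array at each of its 4 probe sets, always by less than 2-fold. The brightest, 1449729_at, read 11.77 on the hybridized array and 12.30 on the live array, a difference of -0.53. At 1420085_at Fgf4 read 11.55 on the hybridized array and 11.67 on the live array, a difference of -0.12. These 2 and 1420086_x_at share 1 source sequence and are not independent measurements, and the suffix _x_at marks probes that may bind unrelated transcripts.

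At 1420086_x_at Fgf4 read 11.20 on the hybridized array and 11.58 on the live array, a difference of -0.38. The fourth, 1450282_at, was made from the RefSeq mRNA and stayed under the level of 5 on both arrays, with 4.16 on the hybridized array and 4.93 on the live array. Its difference of -0.77 is the lowest of the 12, but values near the lower end carry little order. The 3 probe sets at the level averaged -0.34. Of 950 genes with 3 or more probe sets at the level, 16.9% had them all below 0 and 23.2% all above.

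**Figure D2:**
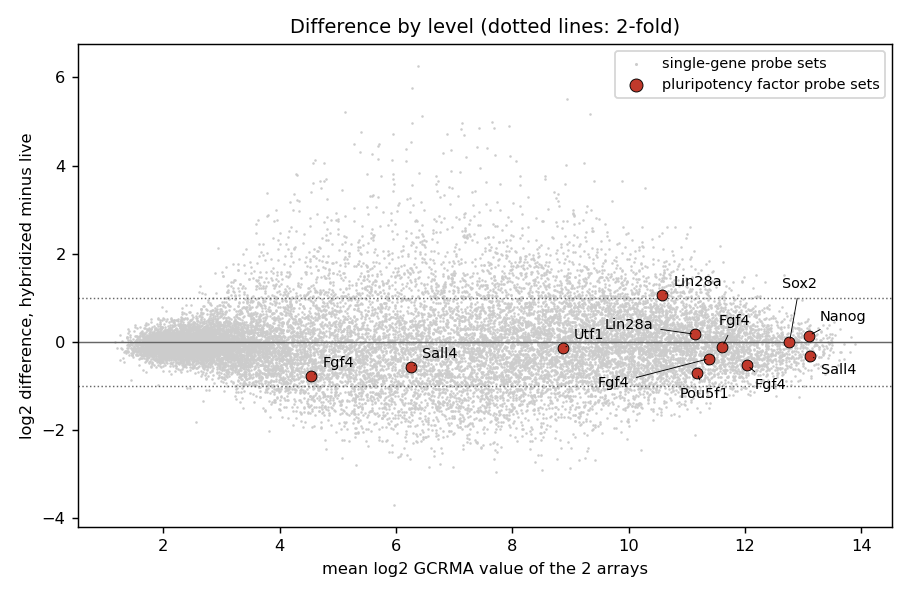
Log2 difference, hybridized minus live (vertical axis), against the mean log2 value of both arrays (horizontal axis) for all single-gene probe sets (grey) and the 12 of the pluripotency factors (labelled), with dotted lines at 2-fold. Lin28a 1421749_at, at 1.06, is the labelled point outside the lines, and the spread of the grey points narrows toward high values.

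The level of a probe set set how often its neighbours were 2-fold apart. Within 0.5 of each of the 12 means this share ran from 1.31% at Nanog to 37.5% at Sall4 1424153_s_at, and it averaged 13.9% over the 12.

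The direction of the small differences depended on how the arrays were centred. Centring on the median probe set, a loess correction for level and quantile normalization left every sign but that of Sox2, which turned to 0.06, 0.09 and 0.16. The bacterial and phage hybridization controls, added to each sample in set amounts, were lower on the hybridized array at all 18 probe sets, by differences of -1.22 to -0.15. Centring on their median adds 0.80 to every difference. All 12 probe sets were then above 0, from 0.03 at Fgf4 1450282_at to 1.86 at Lin28a 1421749_at. The count past 2-fold stayed at 1 higher and 0 lower, and the share of all single-gene probe sets past it under that centring was not computed. Pou5f1 read 0.10 higher under that centring and Nanog 0.94 higher.

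**Figure D3:**
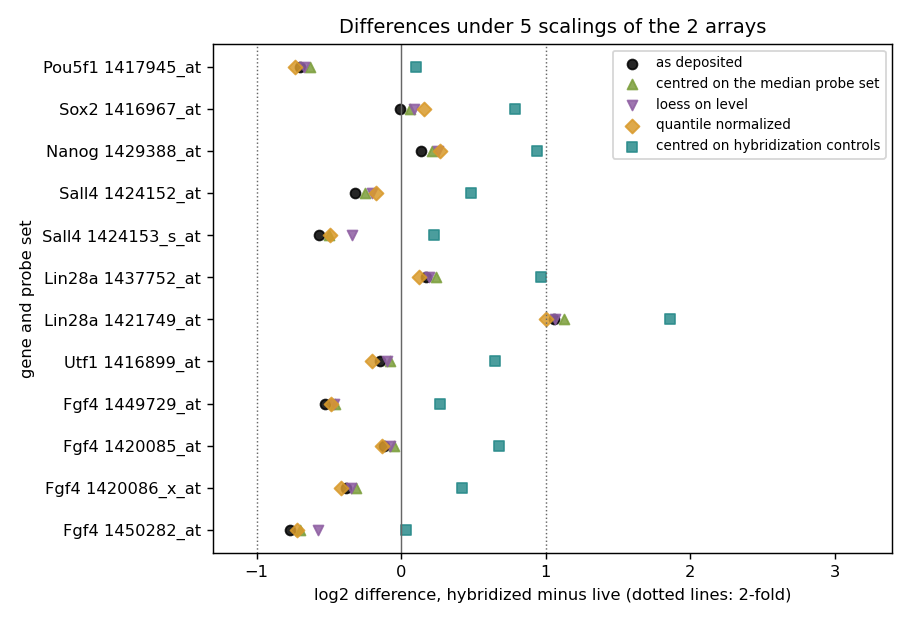
Log2 difference, hybridized minus live (horizontal axis), of the 12 probe sets (rows) as deposited and under 4 other scalings of the arrays, with dotted lines at 2-fold. Centring on the hybridization controls (squares) moves each point by 0.80 to the right, and the other scalings lie close to the deposited values.

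Partners and targets of the core factors lay on both sides of 0. Of 40 listed genes 31 had a probe set of their own, and 30 reached a mean of 5 on the brightest one. Among these, 1 passed 2-fold upward and 4 downward on the hybridized array, against 8.43% and 15.4% of all 7262 genes at the level, and the median was -0.14 against -0.17 over those genes. Otx2, a homeodomain factor of the exit from naive pluripotency, was 1.04 higher and Dppa3, a naive and germ line gene also called Stella, 0.98 higher. Tcf7l1, a repressor that limits Nanog, read 9.09 on the hybridized array and 10.55 on the live array, with a second probe set also lower at -0.89. Trim28, a corepressor that silences retroviruses in these cells, differed by -1.16. The other 2-fold lower genes were Foxd3, a forkhead factor, at -1.14, and Klf2, a naive factor, at 9.69 on the hybridized array and 10.69 on the live array.

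Receptors and transducers of FGF4 were mostly lower on their brightest probe sets, by small amounts. Of 29 listed genes 23 were on the array and 18 reached the level. Among those 0 were 2-fold higher and 3 were 2-fold lower, against 8.43% and 15.4% of all genes at the level. The median was -0.39 against -0.17 over all genes. Below 0 were 14 of 18, and the share of all genes below 0 by brightest probe set was not computed. With the mean over probe sets 1 was 2-fold higher, namely Gab1, an adaptor, at 1.21, and 2 were lower. Fgfr1, an FGF receptor, read 8.88 on the hybridized array and 10.49 on the live array, a difference of -1.61. Its second probe set was under the level of 5 and 0.42 higher. Frs3, an adaptor of FGF receptors, differed by -1.48, and Spred2, an inhibitor of the pathway, by -1.04. Dusp6, an ERK phosphatase, and Nras, a small GTPase, were highest by brightest probe set, at 0.36 each. Fgfr2, Fgfr3 and Fgfr4 did not reach a mean of 5 on their brightest probe sets.

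Genes listed for the LIN28 and let-7 pathway, which include let-7 processing genes and let-7 targets, lay on both sides of 0. Of 11 at the level, 7 were above 0 and 4 below on their brightest probe sets, with a median of 0.06 against -0.17 over all genes. The share of all genes above 0 by brightest probe set was not computed. By those probe sets 0 genes were 2-fold higher and 1 was 2-fold lower, against 8.43% and 15.4% of all genes at the level. The lower gene was Myc, at 6.37 on the hybridized array and 7.37 on the live array. Hmga2, a chromatin protein encoded by a let-7 target, was 0.88 higher at its brightest probe set and 0.36 and 0.31 higher on the others. With the mean over probe sets Igf2bp3, an RNA-binding protein, was 1.12 higher and so past 2-fold. Xpo5, the exporter of microRNA precursors, was 0.86 higher. Ago2, the slicing Argonaute, was lower with a difference of -0.83. Lin28b, the paralog of Lin28a, had no probe set of its own in the annotation used.

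Subunits of NuRD, the chromatin complex that Sall4 recruits, were lower in 11 of 12 cases by brightest probe set. The median was -0.40 against -0.17 over all genes, and the share of all genes below 0 on that measure was not computed. With the mean over probe sets the list median was -0.28, with no value over all genes beside it, and Rbbp4 at 0.94, Hdac2 at 0.75 and Gatad2a at 0.43 were above 0. By brightest probe set 0 subunits were 2-fold higher and 1 was 2-fold lower, against 8.43% and 15.4% of all genes at the level. Mta1 read 8.93 on the hybridized array and 10.23 on the live array, and Mta2 differed by -0.95. Hdac2, a histone deacetylase, was the one above 0 by brightest probe set, at 11.74 on the hybridized array and 10.99 on the live array. Rbbp4, a histone-binding subunit, differed by -0.40 and -0.07 on its brighter probe sets and by 3.29 on the third, at 9.91 on the hybridized array and 6.62 on the live array, which shows how far probe sets of 1 gene can part on these arrays. Centred on the hybridization controls, 0 genes of the 4 lists so far were 2-fold lower. The counts 2-fold higher were then 8 for partners, 3 for FGF4 transducers, 5 for the Lin28 pathway and 1 for NuRD. The medians were 0.66, 0.41, 0.86 and 0.40 in the same order. That centring adds 0.80 to every difference on the arrays, and the shares and median of all genes under it were not computed. The shares of 8.43% and 15.4% hold for the values as deposited, so these counts have no background to be read against.

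**Figure D4:**
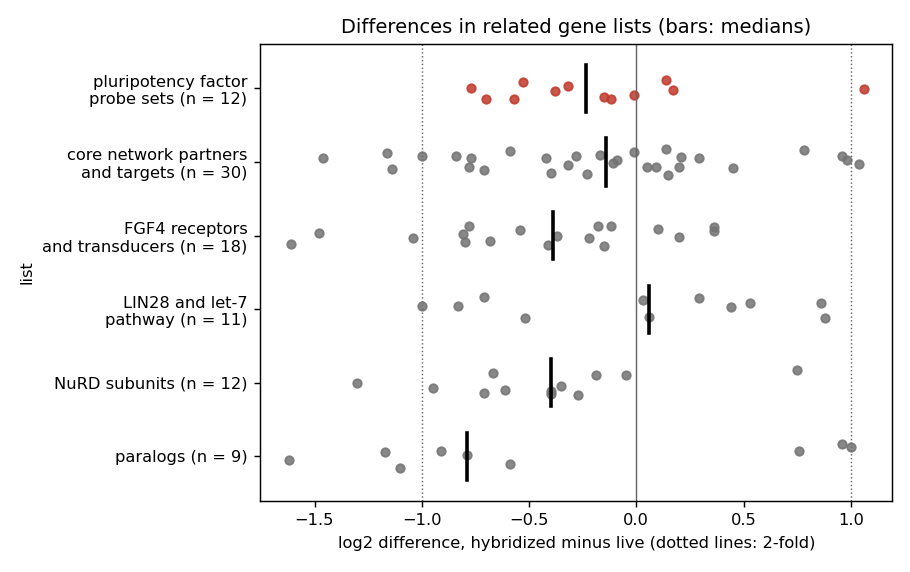
Log2 difference, hybridized minus live (horizontal axis), of the 12 pluripotency factor probe sets and of the genes of 5 related lists at a mean of 5 or more (rows, 1 point a probe set or gene, bars at the medians). The medians run from -0.79 for paralogs to 0.06 for the LIN28 and let-7 pathway, and most points lie within 2-fold.

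Paralogs of the factors were largely at low signal. Of 31 listed genes 27 were on the array and 9 reached the level, with a median of -0.79 on the brightest probe sets against -0.17 over all genes. Of these, 1 passed 2-fold upward and 3 downward, against 8.43% and 15.4% of all genes at the level. Sox4 read 9.55 on the hybridized array and 8.55 on the live array at its brightest probe set, while its other probe sets were under the level, and Sall1, a paralog of Sall4, was 0.96 higher. Pou3f1, a POU factor of formative and neural cells, read 6.77 on the hybridized array and 8.39 on the live array. Fgf17 differed by -1.17 on its brighter probe set and by 0.51 on the other. Sox12, the other gene 2-fold lower, differed by -1.10. Averaged over probe sets, the median of this list was -0.33, with 0 genes 2-fold higher and 2 lower. Centred on the hybridization controls this median was 0.01, with 3 higher and 0 lower, and the shares of all genes under that centring were not computed.

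Marker genes of several cell types were also read, by their brightest probe sets. The pluripotent list includes the 7 factors described above, and lists were chosen with earlier results of these data known. It is therefore no independent check of the cells' identity. All 14 pluripotent markers, the 7 factors among them, reached the level of 5, with medians of 12.07 on the hybridized array and 12.25 on the live array. Of fibroblast markers 2 of 19 reached it, Col1a1 and Col5a1, of neural markers 1 of 11, Tubb3, and of mesoderm markers 1 of 10, Eomes. Most of the markers of other cell types at the level were lower on the hybridized array. Those past 2-fold were Col1a1 at -1.71, Col5a1 at -2.15, Tubb3 at -1.53, Krt8 at -1.48, Col4a1 at -1.34 and Col4a2 at -1.86. Tead4 at -0.86, Lama1 and Lamb1 at -0.65 each and Eomes at -0.08 were lower by less than 2-fold. Krt18 was 0.71 higher and Tfap2c 0.69 higher, and the trophectoderm markers at the level had a median of -0.08. By list, 2 of 2 fibroblast, 2 of 4 primitive endoderm and 1 of 5 trophectoderm markers at the level were 2-fold lower. The same held for 1 of 1 neural and 0 of 1 mesoderm markers, and 0 in any list were 2-fold higher. Of all genes at the level on their brightest probe set, 15.4% were 2-fold lower and 8.43% 2-fold higher, and lists this short give no rate to set beside them. The summed log2 values of the fibroblast list were 54.3 on the hybridized array and 64.3 on the live array. In the same order they were 53.79 and 59.36 for primitive endoderm, 35.44 and 37.37 for neural and 34.25 and 34.82 for mesoderm. They were 59.0 and 59.33 for trophectoderm, and 163.51 and 164.27 for pluripotent markers. Most fibroblast markers were under the level, so their sum rests largely on low values. Single fibroblast markers lay between 1.71 and 5.43 on the hybridized array and between 1.87 and 7.58 on the live array. Of the primitive endoderm markers 4 of 13 reached the level, all of them laminin or collagen genes, while 5 of 10 trophectoderm markers did, among them Tfap2c at 12.93 on the hybridized array and 12.24 on the live array. No marker is at 0 on this scale, so the defining genes Gata4, Gata6 and Cdx2 are described only as under the level. In bulk RNA fewer cells of a type and less RNA per cell cannot be told apart, and the part of these markers in the differences above was not tested.

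By distance over the 2 arrays, the gene nearest to the brightest probe set of each factor was Dnajc10 for Pou5f1, Hspe1 for Sox2, Rpl11 for Nanog, H2az1 for Sall4, Uxs1 for Lin28a, Zfp566 for Utf1 and Atp2a2 for Fgf4. The distances ran from 0.02 to 0.0566 log2 units. Between 33 and 115 genes lay within 0.25 of each, so with 2 arrays this likeness singles out no gene.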

How the data were processed

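GCRMA and affy are named in the submitters' processing notes, without versions. The authors deposited log2 values to 2 decimals, 1 for each probe set on each array. The log base was inferred from the method and the range, and the set of arrays normalized jointly is not given. Of 22690 probe sets, 64 are controls, 20380 name 1 gene in the platform table, 691 name several and 1555 are unnamed here. Only the second of these classes was used, beside the controls, except that quantile normalization was run over all 22690 probe sets. All 7 symbols matched RefSeq through Entrez IDs. No column was left unmapped. Depth is not defined for arrays, and without detection calls the level of 5 is a set limit.

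Differences were computed per probe set. Background shares use all single-gene probe sets, or genes by their brightest probe set. Neighbours are probe sets within 0.5 of a mean. Alternatives were centring on the median probe set or on 18 hybridization controls, loess (span 0.3), quantile normalization, fold limits of 1.5 and 4, level limits of 4 and 7 or none, other choices of probe sets, and, for the lists, the mean over probe sets. The rule named every member probe set, up to 2 genes per direction and list, control probe sets and the nearest gene to each factor, passing over clone names. Other genes were named after their values were seen. Members and lists were chosen with earlier results of these data known. Calls, loess and quantile steps were tested on simulated data. Python 3.11.15, numpy 2.4.6, pandas 2.3.3, statsmodels 0.14.6 and matplotlib 3.10.9 were used.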

Additional observations from a re-analysis of the deposited data

How the results depend on the processing

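No paired analysis was possible because each group has 1 array and no test was made, and for the same reason no replicate could be left out. The count of factor probe sets at least 2-fold higher was 1, and it became 0 at a fold limit of 4, with the brightest probe set of each gene and with the mean over probe sets. Lin28a 1421749_at was under the first limit, was not used in the second and was averaged with 1437752_at to 0.62 in the third. The count at least 2-fold lower was 0, and 2 at a fold limit of 1.5, namely Pou5f1 and Fgf4 1450282_at. The median difference of -0.24 turned to 0.57 when centred on the hybridization controls, which adds 0.80 to each difference, and ran from -0.19 to -0.14 under the other alternatives. The share of all single-gene probe sets 2-fold apart was 25.9% at a mean of 5 or more and 17.4% with no limit. The arrays' number and the lack of detection calls limit what values near 5 or below can show, as for Fgf4 1450282_at and Sall4 1424153_s_at.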

Other observations

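The choice of probe set moved the balance of the whole comparison as well as Lin28a. Over genes by their brightest probe set, 8.43% were past 2-fold upward on the hybridized array and 15.4% downward, whereas over all single-gene probe sets at a mean of 5 or more the shares were 13.1% and 12.8%. In the 1770 genes with exactly 2 such probe sets, the dimmer had the higher difference in 61.8%. Over all 1770, the median of the dimmer difference minus the brighter was 0.28. Of these dimmer probe sets 19.7% were 2-fold higher and 9.55% 2-fold lower, and of the brighter 8.98% were 2-fold higher and 13.2% 2-fold lower. Lin28a follows this pattern, with 1.06 on the dimmer and 0.17 on the brighter probe set, and Sall4 does not, with -0.57 and -0.32. Its cause was not tested. Taken by brightest probe set alone, Lin28a differs by 0.17.

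Other genes whose probe sets parted are given here, chosen after their values were seen. Igf2bp3, an RNA-binding protein, read 9.34 on the hybridized array and 6.51 on the live array on its dimmest probe set and differed by 0.03 on its brightest. Gab1, an adaptor of receptor signalling, read 7.72 on the hybridized array and 4.77 on the live array on its dimmest and differed by 0.10 on its brightest. Spred1, an inhibitor of ERK signalling, parted in sign, with -0.80 on its brightest probe set and 1.07 and 1.73 on the others.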
